A study of Rattus norvegicus with 72 samples.

Results

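Interleukin-6 (Il6) belongs to a family of secreted cytokines whose receptors share one signalling subunit, gp130, encoded by Il6st. Il6 first binds its own receptor (Il6r). Leukaemia inhibitory factor (Lif) acts through the partner subunit Lifr, and ciliary neurotrophic factor (Cntf) and cardiotrophin-like cytokine factor 1 (Clcf1) act through the binding subunit Cntfr together with Lifr. Oncostatin M uses Osmr. Binding brings gp130 subunits together, activates Jak kinases and the transcription factor Stat3, and induces the feedback inhibitor Socs3. In peripheral nerve the family is known for its part in the response of sensory neurons and Schwann cells to axon injury.

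Of these 9 listed ligand and receptor genes, 8 were measured by the array used here, through 13 probe sets that the platform annotation assigns to exactly 1 of the symbols, out of 20826 such probe sets and 14217 named genes. Each gene was read from its brightest probe set (by the mean of the 72 values), and the others served as a check. Il6st had 4 probe sets, Lifr and Cntfr had 2 each, and the other 5 genes had 1. Osmr had none under this rule and was not analysed here. Values are log2 intensities after robust multi-array averaging (RMA), so that a step of 1 is a doubling. A gene was tested where its mean over all arrays reached 5.46, the 25th percentile of all probe sets. Il6, Cntf, Il6st, Il6r, Lifr and Cntfr passed. Il6 (mean 5.64) passed only through the lesion arrays in which it was high, as it averaged 4.57 over the 21 sham arrays. It therefore had to differ between groups, and counts of members called are not support for it. Lif (mean 5.09) and Clcf1 (mean 3.66) did not.

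The 72 arrays held RNA of lumbar dorsal root ganglia (L4 and L5) from adult Wistar rats aged 8 to 12 weeks. These ganglia hold the cell bodies of sensory neurons with axons in the sciatic nerve. There were 21 sham arrays, 22 after a crush labelled proximal and 29 after a crush labelled distal, taken at 8 times from 1 to 28 h (1, 3 and 8 h, then 12, 16 and 18 h, then 24 and 28 h). The sham and proximal groups had 3 arrays at each hour, except for 2 sham and 2 proximal arrays at 12 h and 1 sham and 2 proximal arrays at 16 h. The distal groups had 4, 3, 5, 3, 2, 6, 3 and 3 arrays in the order of the hours. The animals carried no stated genetic change or drug. The labels do not say whether the arrays of a group came from separate animals, so the tests weigh differences against the scatter of these arrays, which may be technical, and how far the crush lay from the ganglia is not given. In such bulk RNA, fewer cells of a type and less RNA per cell cannot be told apart.

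The tissue label fitted the data: 13 measured sensory neuron markers averaged between 11.87 and 12.44 in every array and 7 Schwann cell markers between 11.22 and 11.85. Clustering on the dim probe sets, those below the filter, split the arrays into 4 groups, a number that was set and not estimated. They are called technical sets here, and the labels do not give their origin. Set A was purely distal (27 arrays). The remaining 2 distal arrays fell in set B, beside 4 sham and 4 proximal arrays, and in set C, beside 8 sham and 9 proximal arrays. Set D contained 9 arrays each of sham and proximal. The distal lesion and the technical set therefore cannot be told apart when distal arrays are set against sham, and distal arrays are compared below mainly with earlier distal arrays. Sham and proximal arrays of one hour fell in the same sets at each hour other than 16 h. One sham array, labelled b at 12 h, stood apart. Its level of Atf3, a transcription factor induced by axon injury, was 11.55 against 6.14 to 10.16 in the other 20 sham arrays, and its Il6 level was 7.07 against 4.07 to 5.11.

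The 300 bases around the start of Il6 are shown because Il6 carried the largest change among the members. Il6 lies at chr4:5889999-5894575 in the rat build GRCr8, and the RefSeq window at chr4:5894526-5894825 on the minus strand holds 250 bases before the annotated start and 50 after it. The sequence reads 5′ to 3′ along the gene, with capitals at the matches to the motifs searched.
Il6 promoter: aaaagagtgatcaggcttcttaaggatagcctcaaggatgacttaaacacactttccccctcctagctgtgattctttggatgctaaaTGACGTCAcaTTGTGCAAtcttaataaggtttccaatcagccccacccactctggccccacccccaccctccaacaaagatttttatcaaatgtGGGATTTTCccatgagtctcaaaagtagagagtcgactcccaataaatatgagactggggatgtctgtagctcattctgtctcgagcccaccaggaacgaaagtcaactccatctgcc
Motifs were searched on both strands, and the matches did not overlap. A cAMP response element (CRE), TGACGTCA, began 162 bases before the start, and 1.83% of 33469 such rat promoter windows held one. A C/EBP motif, TTNNGCAA, began 152 bases before the start and stood in 10.6% of windows. A kappaB motif, GGGANTTTC, began 68 bases before the start and stood in 1.15% of windows. The AP-1 motif TGANTCA (7.33% of windows) and the STAT motif TTCNNNGAA (8.87% of windows) had no match in the Il6 window. A window was listed for 6 of the 9 genes. Of the other 5, Cntf and Osmr each held 1 AP-1 match and none of the other motifs, and Il6st, Il6r and Lifr held no match to the 5 motifs. These matches describe letters in a window and were not tested for binding.

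Il6 was the member that changed most, and it did so late. After the proximal crush it stayed at sham level to 12 h, was between both levels at 16 h, and was high at 18, 24 and 28 h. After the distal crush it was still low at 12 h and was high in every array from 16 h on. In sham no change with time passed the test.

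In sham, Il6 read 4.22 to 4.39 at 1 h, 4.15 to 4.66 at 3 h and 4.36 to 4.71 at 8 h. The sham arrays read 4.54 and 7.07 at 12 h and 4.65 at 16 h. They read 4.07, 4.10 and 5.11 at 18 h, 4.25, 4.41 and 4.82 at 24 h, and 4.19, 4.27 and 4.63 at 28 h. Apart from the 12 h array labelled b, every sham array lay under the filter level of 5.46, so the sham level of this cytokine gene has only an upper bound. After the proximal crush, Il6 read 4.01 to 4.43 over the 9 arrays from 1 to 8 h and 4.48 and 4.82 at 12 h. It read 5.47 and 5.96 at 16 h and 7.31, 8.74 and 8.83 at 18 h. At 24 h it read 7.65, 7.88 and 8.26, and at 28 h 7.13, 7.40 and 7.77. The proximal arrays overlapped sham up to 12 h, and from 18 h the lowest proximal array lay above every sham array of any hour. After the distal crush, Il6 read 3.89 to 4.50 over the 12 arrays from 1 to 8 h and 4.01, 4.12 and 4.57 at 12 h. It then read 7.94 and 8.41 at 16 h, and 6.09, 7.32, 7.43, 8.24, 8.52 and 8.73 at 18 h. The distal arrays read 8.68, 8.91 and 9.22 at 24 h and 8.91, 8.99 and 9.33 at 28 h. The lowest distal array from 16 h on was the one labelled do at 18 h, the only late distal array outside set A.

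**Figure D1:**
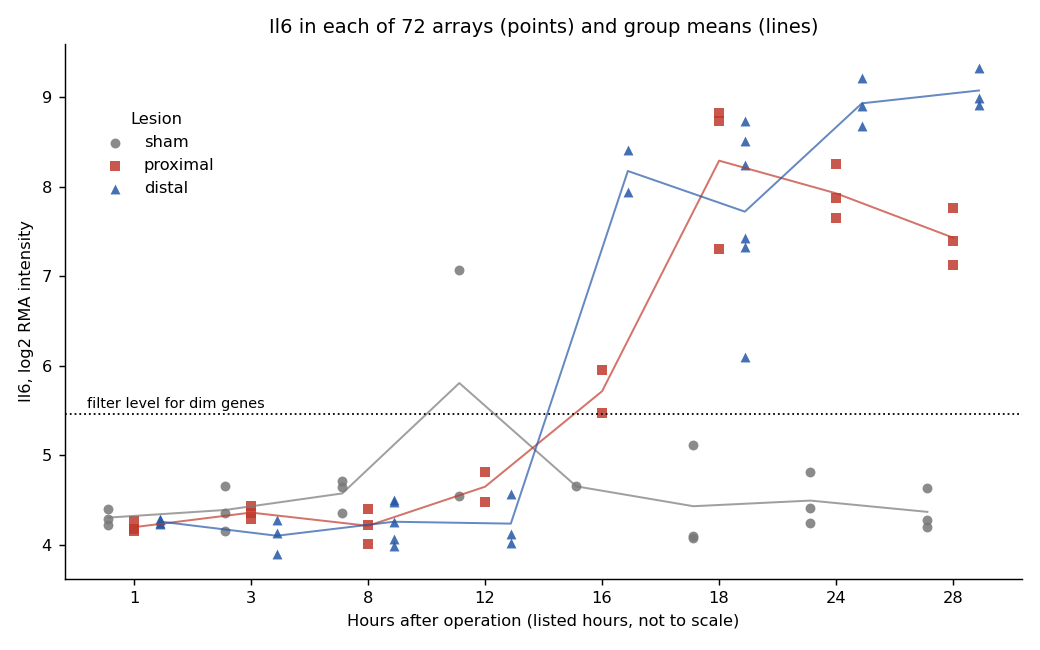
Log2 RMA intensity of Il6 (vertical axis) in each of the 72 arrays at the 8 hours after operation (horizontal axis, hours not to scale), with points for arrays, lines for group means and a dotted line at the filter level of 5.46. Sham arrays stay under the line except 1 array at 12 h (7.07). Proximal arrays rise above it between 12 and 16 h, with 5.47 and 5.96 at 16 h and at least 7.31 at 18 h. Distal arrays go from at most 4.57 at 12 h to at least 7.94 at 16 h.

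Proximal and sham were compared in 3 windows with limma, fitted to all 72 arrays with 1 mean per group, and p-values were adjusted by the Benjamini-Hochberg method over the 12276 genes tested. In the early window (1, 3 and 8 h) 0 of 6 members passed, and 0 had an unadjusted p under 0.05, where 0.13% of all genes passed. In the middle window (12 and 16 h) 0 of 6 passed, 0 had an unadjusted p under 0.05, and 0.114% of all genes passed. In the late window (18, 24 and 28 h) 1 of 6 members passed, against 9.71% of all genes. The median difference of the members was 0.17 in the late window, and that of all genes was -0.02. The late passing member was Il6.

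Late Il6 averaged 7.88 ± 0.61 (SD, n = 9) after the proximal crush and 4.43 ± 0.35 (SD, n = 9) in sham. The fitted difference was 3.46 (SE 0.23, 95% interval 3.00 to 3.91, adjusted p 5.63e-18). Because sham lay below the filter level, the fold is a lower bound, set against that level: Il6 was at least 5.35-fold higher. Taken hour by hour, Il6 was higher by 3.86 at 18 h (SE 0.39, adjusted p 8.44e-10, at least 7.11-fold). By 24 h its difference from sham was 3.44 (SE 0.39, adjusted p 1.22e-08, at least 5.52-fold), and by 28 h 3.07 (SE 0.39, adjusted p 1.09e-07, at least 3.91-fold). At these hours 1.51%, 1.21% and 4.47% of all genes passed. With the 18 h arrays of both groups fitted alone, the 18 h call was lost (difference 3.86, adjusted p 0.0996). Within technical sets the late difference kept its sign: at 18 h it was 4.70 in set B (2 arrays against 2) and 2.20 in set C (1 against 1), and at 24 and 28 h all arrays lay in set D. At 1, 3 and 8 h the Il6 differences were -0.11, -0.03 and -0.36 (SE 0.39 each), and 0%, 0% and 1.75% of all genes passed. At 1 and 3 h, 247 and 307 genes had an unadjusted p under 0.05. The middle window gave -0.05 (SE 0.38) for Il6, and 0.59 (adjusted p 0.67) without the sham array labelled b at 12 h.

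Macrophages are a known source of Il6, and part of their markers were higher in the late proximal window. Of 16 macrophage markers tested, 10 were higher and 0 lower in late proximal than in late sham arrays, where 9.71% of all genes passed. By hour, 0 of 16 passed at 18 h, 0 at 24 h and 11 at 28 h (1.51%, 1.21% and 4.47% of all genes). The proximal change over time exceeded the sham change for 1 of 16, where 3.26% of all genes passed. The mean level of the 16 markers ran from 7.72 to 8.74 in late proximal and from 7.30 to 8.00 in late sham arrays. In the 5 of 9 late proximal arrays whose macrophage level did not exceed that of the highest late sham array, Il6 read 7.31 to 8.83, against 7.13 to 8.83 in all 9. The lowest late proximal macrophage level (7.72) lay above the late sham mean (7.65), so no late proximal array stood at or below that mean. Of 2 neutrophil markers tested, 1 (S100a9) was higher. No cell type was separated, and which cells held the Il6 RNA was not tested.

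Within the distal arrays, the late window was set against 1 and 3 h of the same lesion. Il6 averaged 8.36 ± 0.96 (SD, n = 12) late, and 8.58 as the mean of the 3 hours weighted equally, which the fit uses. The fitted rise was 4.40 (SE 0.24, 95% interval 3.93 to 4.87, adjusted p 1.46e-21). With the level at 1 and 3 h below the filter, 8.58 against the filter level gives a rise of at least 8.66-fold. Of the 6 members, 1 rose and 1 (Il6r) fell, where 24.6% of all genes passed. Over the same hours Il6 rose by 3.61 (SE 0.25, adjusted p 6.93e-17) in proximal arrays, where 25.2% of all genes passed, and in sham the difference was 0.08 (SE 0.25, adjusted p 0.837), where 14.8% passed. The proximal rise exceeded the sham change by 3.52 (SE 0.36, adjusted p 3e-10), and the distal rise exceeded it by 4.32 (SE 0.35, adjusted p 1.09e-13). Both tests share the sham arrays. The sham arrays and the lesion arrays at 1 and 3 h lay below the filter level, so these sizes rest in part on dim values and describe the fitted log2 scale only. In these tests 3.26% and 17.8% of all genes passed, and 1 of 6 members (Il6) passed in each.

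The start of the distal rise fell between 12 and 16 h. At 8 h against 1 and 3 h, the distal difference was 0.08 (SE 0.28, adjusted p 0.982) with 0 of 6 members passing, 0 at an unadjusted p under 0.05, and 1.83% of all genes passing. At 12 and 16 h together it was 2.03 (SE 0.29, adjusted p 3.33e-06), and Il6 was the 1 of 6 members called where 2.3% of all genes passed. The mean of that window joins 3 low arrays at 12 h with 2 high arrays at 16 h. At 16 h both distal arrays (7.94 and 8.41) lay above both proximal arrays (5.47 and 5.96). The distal arrays at 16 h were in set A and the proximal ones in sets B and C, so lesion and set cannot be told apart there.

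Whether the rise over 1 day differed between the lesion sites was tested directly. The distal rise of Il6 was larger by 0.79 (SE 0.35, 95% interval 0.10 to 1.49, unadjusted p 0.0261, adjusted p 0.106), which did not pass. None of the 6 members passed this test, 1 had an unadjusted p under 0.05, and 16.5% of all genes passed. The Il6 verdict depended on the processing, as the difference passed in 8 of 52 alternative settings. Without the distal 18 h array labelled do, the difference was 0.90 (adjusted p 0.0303). It was 1.42 (adjusted p 0.0128) with 18 h left out of the late window, and 1.13 (adjusted p 0.009) with the technical set as a fixed block. The smallest difference was 0.32 (adjusted p 0.575), with 28 h left out of the late window. Skeletal muscle markers moved with this comparison: 3 of 7 (Ckm, Myh1 and Tnnt3) changed more in the distal arrays and 0 less, with a median difference of 1.58 against -0.03 for all genes, and their part in the Il6 difference was not tested. The group means ran in opposite directions after 18 h. Il6 averaged 8.29, 7.93 and 7.43 at 18, 24 and 28 h after the proximal crush and 7.72, 8.93 and 9.08 after the distal crush. These courses are given as values, without a test. Proximal 18 h arrays were in sets B and C and later ones in set D, and distal arrays other than the one labelled do were in set A throughout.

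Muscle tissue is another known source of Il6. The mean level of 7 skeletal muscle markers ran from 6.66 to 10.41 in late distal arrays and from 6.74 to 10.34 in early distal arrays (1, 3 and 8 h). Against 1 and 3 h, 1 of 7 (Des) passed as higher late, where 24.6% of all genes passed. The median change of the 7 was 1.19, against 0.03 for all genes. In the 7 of 12 late distal arrays whose muscle level did not exceed that of early sham arrays, Il6 read 6.09 to 9.22, against 6.09 to 9.33 in all 12. That limit comes from sham arrays, against which distal lesion and technical set cannot be told apart. Macrophage levels ran from 7.59 to 8.18 in late and from 7.62 to 8.13 in early distal arrays. Of the 16 markers, 5 were higher and 3 lower late than at 1 and 3 h, where 24.6% of all genes passed. In the 10 of 12 late distal arrays at or below the highest early macrophage level, Il6 read 6.09 to 9.33. These ranges do not show which cells held the Il6 RNA, and the part of muscle or macrophages in its rise was not tested.

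In the order of the 24 group means of Il6, the lowest 15 were early distal and proximal groups, distal and proximal 12 h, and every sham group except 12 h. They ran from 4.10 to 4.65 with overlapping arrays. Proximal 16 h (5.71) and sham 12 h (5.81 ± 1.79, SD, n = 2) followed. Proximal 28 h (7.43), distal 18 h (7.72), proximal 24 h (7.93), distal 16 h (8.18) and proximal 18 h (8.29) each overlapped the next in this order. Groups farther apart did not always overlap, as the proximal 28 h arrays (7.13 to 7.77) lay below those of distal 16 h (7.94 and 8.41). Distal 24 h (8.93) and distal 28 h (9.08) were highest, and their arrays overlapped each other. The lowest distal 24 h array (8.68) lay within the range of the proximal 18 h arrays (7.31 to 8.83).

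Among the other ligands, Cntf, which Schwann cells are known to make, was bright in every array and moved little. After the proximal crush it read 10.89, 10.91 and 10.92 at 1 h and 11.62, 11.67 and 11.70 at 18 h, which did not overlap. By 28 h it read 11.04, 11.24 and 11.30. Late proximal arrays averaged 11.37 ± 0.24 and late sham arrays 11.09 ± 0.32 (SD, n = 9 each), with ranges of 11.04 to 11.70 and 10.70 to 11.62 that overlapped. The late difference from sham was 0.27 (SE 0.10, 95% interval 0.08 to 0.46, adjusted p 0.065) and did not pass. It passed in 13 of 36 alternative settings, among them the fits with the technical set as a fixed (0.27, adjusted p 0.00247) or random block (0.27, adjusted p 0.00302), without the proximal 28 h array labelled a (0.30, adjusted p 0.0483) and without the sham 18 h array labelled a (0.32, adjusted p 0.0241) or b (0.32, adjusted p 0.0294). The proximal change against 1 and 3 h was 0.38 (SE 0.11, adjusted p 0.0065). Cntf and Il6 were thus the 2 of 6 members that rose over this time after the proximal crush, where 25.2% of all genes passed. The Cntf rise was lost without 18 h (0.23, adjusted p 0.186), without 1 h (0.30, adjusted p 0.0921) and with the technical set as a fixed (0.16, adjusted p 0.14) or random block (0.22, adjusted p 0.0883). The 1 h arrays were all in set D and the 18 h arrays in sets B and C. In sham, Cntf read 11.57 and 11.62 in the 18 h arrays of set B and 10.70 in that of set C. It changed by 0.18 (SE 0.10, adjusted p 0.186) after the distal crush and by 0.10 (SE 0.11, adjusted p 0.523) in sham. Tested directly, the proximal change of Cntf exceeded its sham change by 0.28 (SE 0.15, adjusted p 0.393), which did not pass.

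Lif, known to rise in injured nerve, stayed dim. It ran from 4.53 to 5.46 in late proximal and from 4.69 to 5.55 in late sham arrays, and the late difference was -0.01 (SE 0.15). Early proximal arrays (5.24 to 5.68) and early sham arrays (5.24 to 5.89) overlapped as well. In distal arrays Lif ran from 4.52 to 5.13, apart from 6.18 in the array labelled do at 18 h, the single reading of all 72 above 6. Clcf1, a ligand of the Cntf receptor, read 3.41 to 4.27 over all arrays. At that level differences have no interpretable size: the late distal change was 0.25 (SE 0.06, adjusted p 0.00103 with all 14217 genes tested), and it exceeded the proximal change by 0.27 (SE 0.09, adjusted p 0.0254 in the same fit). For Lif and Clcf1 the array gives no level above its dim range, which does not show that their RNA was absent.

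The receptor genes changed little beside Il6. Il6st, the shared signalling subunit, kept within 10.51 to 11.18 in all 72 arrays by its brightest probe set. Its late proximal difference from sham was 0.04 (SE 0.06, 95% interval -0.08 to 0.17, adjusted p 0.809). Its change was 0.05 (95% interval -0.08 to 0.18) in distal, 0.01 (-0.14 to 0.15) in proximal and -0.06 (-0.20 to 0.08) in sham arrays.

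The other 3 probe sets of Il6st did not follow the brightest one. Probe set 1370957_at ranged from 6.23 to 11.42. It fell by 1.80 (SE 0.42, adjusted p 0.00308) in sham and by 1.27 (SE 0.42, adjusted p 0.021) in proximal arrays between 1 and 3 h and the late window, while the late proximal minus sham difference was 0.01 (SE 0.38). Within a group its arrays could lie far apart, for example 7.71 to 10.71 over early sham arrays. Probe sets 1373140_at and 1383489_at rose after the proximal crush by 0.31 (SE 0.10, adjusted p 0.0148) and 0.41 (SE 0.13, adjusted p 0.014). Their late differences from sham were 0.21 (SE 0.09, adjusted p 0.161) and 0.27 (SE 0.11, adjusted p 0.164), which did not pass. For 1383489_at the change after the distal crush was lower than that after the proximal crush by 0.56 (SE 0.17, adjusted p 0.0163). What part of the transcript each probe set reads was not examined.

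**Figure D2:**
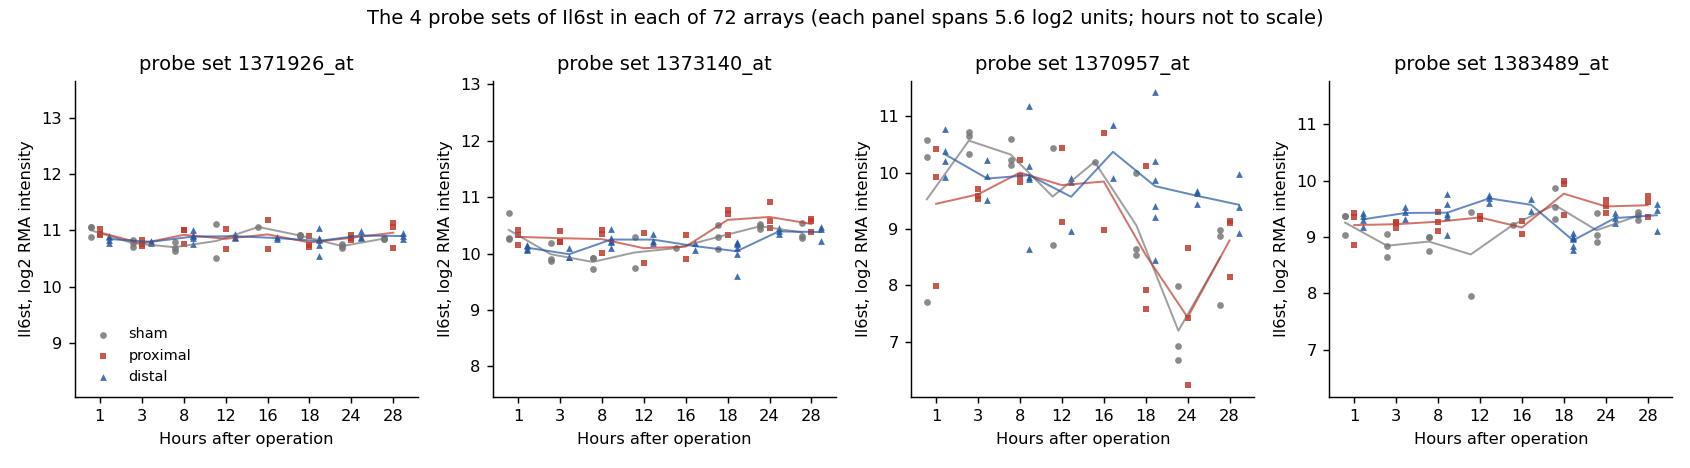
Log2 RMA intensity (vertical axes, each spanning the same number of log2 units) of the 4 probe sets of Il6st in each of the 72 arrays by hour after operation (hours not to scale), with points for arrays and lines for group means. The brightest, 1371926_at, stays within 10.51 to 11.18, whereas 1370957_at ranges from 6.23 to 11.42 and is lowest at 24 h in both sham and proximal arrays.

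Among the member receptors, by their brightest probe sets, Il6r (the binding subunit for Il6) was the one with called changes over time. These changes were downward. Other probe sets of Il6st (upward and downward) and of Lifr (upward) also had called changes over time. In distal arrays Il6r read 7.49, 7.84, 7.88 and 7.89 at 1 h and 7.89, 7.91 and 8.18 at 3 h. It read 6.68 to 7.51 at 18 h, 7.33 to 7.47 at 24 h and 7.39 to 7.69 at 28 h. It fell by 0.50 (SE 0.13, adjusted p 0.00237) between 1 and 3 h and the late window. The fall missed the threshold without 3 h (-0.39, adjusted p 0.0756). Sham arrays fell over the same hours by 0.43 (SE 0.14, adjusted p 0.0272), from 7.03 to 7.91 at 1 and 3 h to 6.86 to 7.26 late. Il6r was the 1 of 6 members called in sham, where 14.8% of all genes passed. The sham call was lost without any 1 of 4 hours (1, 3, 24 or 28 h) and without any 1 of 6 single arrays, with adjusted p of 0.0516 to 0.0773 in the latter: the 1 h arrays labelled a and b, the 3 h arrays labelled b and c, the 18 h array labelled a and the 28 h array labelled c. In proximal arrays the change was -0.26 (SE 0.14, adjusted p 0.165). The distal change did not differ from the sham change beyond its error (-0.07, SE 0.19, 95% interval -0.44 to 0.31). In the late window Il6r read 6.66 to 7.77 in proximal and 6.86 to 7.26 in sham arrays, a difference of 0.30 (SE 0.12, 95% interval 0.05 to 0.54, adjusted p 0.135) that did not pass. Without the proximal 18 h array labelled c (6.66) it was 0.41 (adjusted p 0.0151). The Il6r difference also passed with the technical set as a fixed (0.30, adjusted p 0.0229) or random block (0.30, adjusted p 0.0232), with arrays centred on the median (0.29, adjusted p 0.028) and with array weights (0.50, adjusted p 4.49e-05). The estimation of the array weights did not converge, and 3429 of 12276 genes passed with them, against 1192 without.

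Lifr, the signalling partner for Lif and Cntf, read 6.76 to 7.50 in late proximal and 6.64 to 7.21 in late sham arrays. The difference was 0.08 (SE 0.09, 95% interval -0.10 to 0.25, adjusted p 0.731). Its changes over time were -0.02 in proximal, -0.01 in distal and -0.24 in sham arrays (SE 0.10, 0.09 and 0.10), and none passed (adjusted p 0.898, 0.951 and 0.0786). Its second probe set, 1395957_at, rose by 0.36 (SE 0.14, adjusted p 0.047) in proximal arrays, and its late difference from sham was 0.35 (SE 0.12, adjusted p 0.0719). Cntfr, the anchored subunit that binds Cntf, read 7.56 to 8.65 in late proximal and 7.97 to 8.79 in late sham arrays, a difference of -0.22 (SE 0.15, 95% interval -0.52 to 0.07, adjusted p 0.432). Its second probe set, 1394008_x_at, gave -0.12 (SE 0.14, adjusted p 0.788). In both genes the late proximal and sham arrays overlapped by the brightest probe set.

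**Figure D3:**
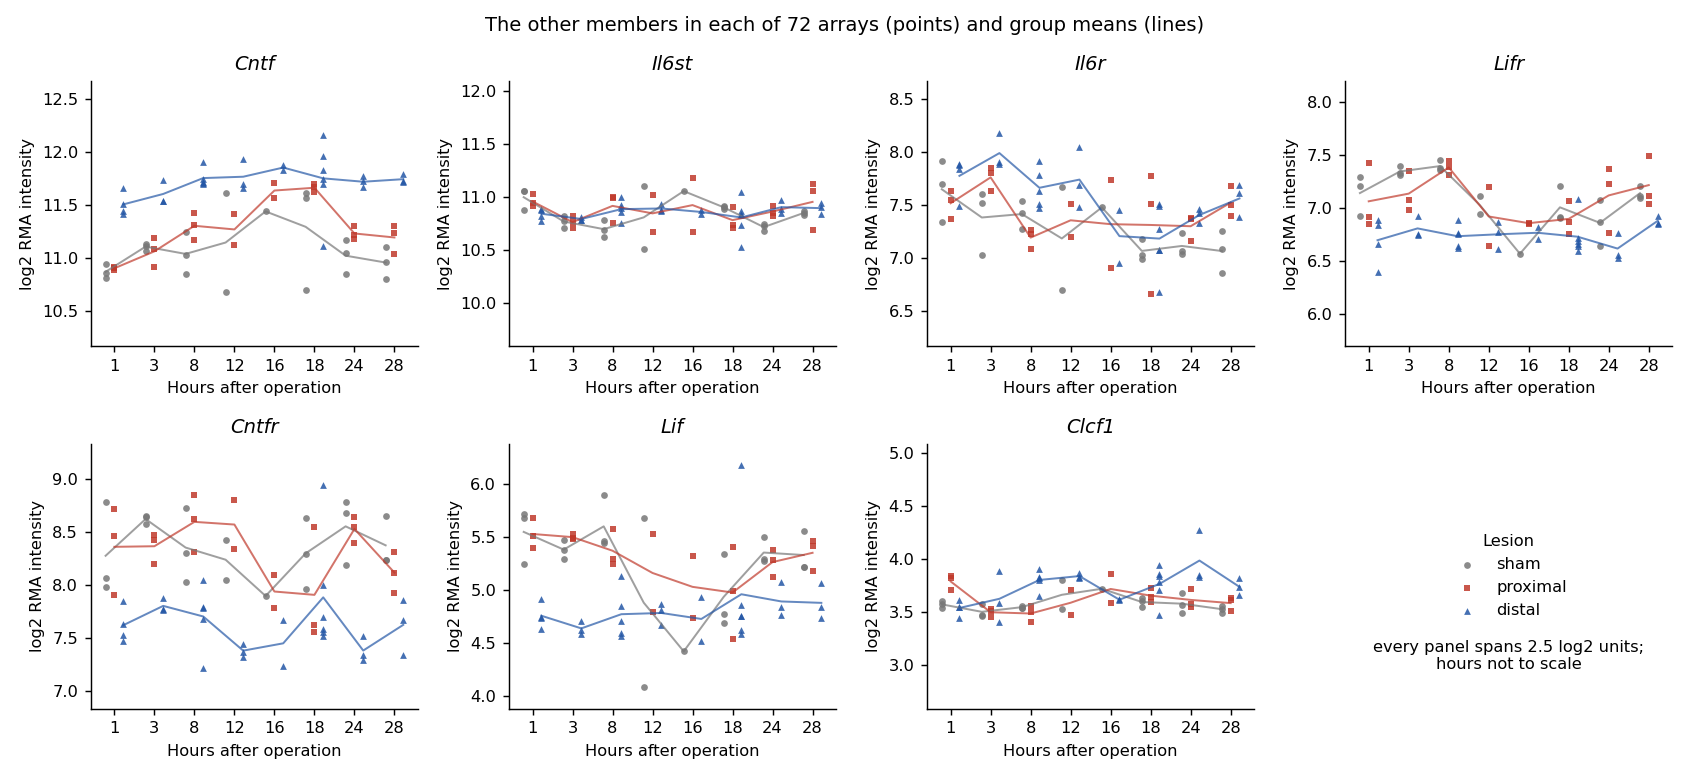
Log2 RMA intensity (vertical axes, each spanning the same number of log2 units) of Cntf, Il6st, Il6r, Lifr, Cntfr, Lif and Clcf1 in each of the 72 arrays by hour after operation (hours not to scale), with points for arrays and lines for group means. Sham and proximal arrays of these genes overlap in the late window. At 1 to 8 h distal arrays run from 11.42 to 11.91 for Cntf, above the sham arrays (10.81 to 11.25).

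**Figure D4:**
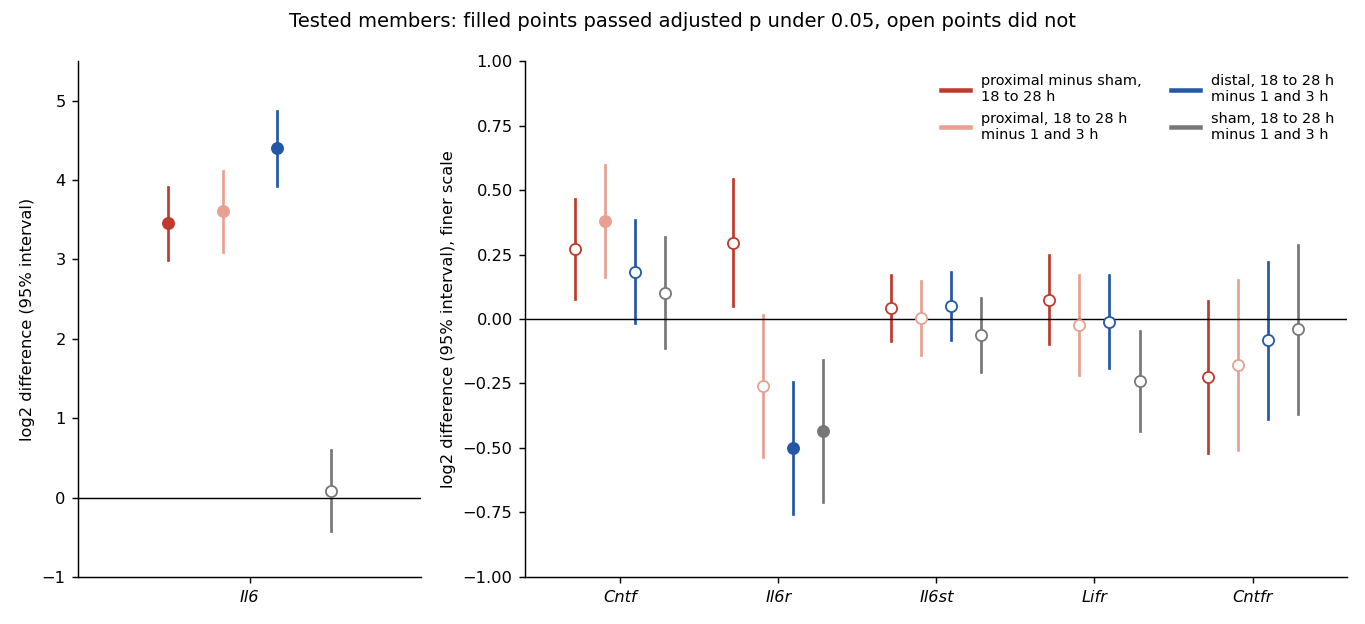
Log2 differences (vertical axes, finer on the right) of the 6 tested members with 95% intervals as lines, for late proximal minus late sham arrays and for the late change against 1 and 3 h in proximal, distal and sham arrays, with filled points for adjusted p under 0.05. Il6 stands at 3.46, 3.61 and 4.40 in the first 3 and at 0.08 in sham, and every other member lies between -0.50 and 0.38.

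Distal arrays differed from sham arrays in most genes, before any late change. In the early window 68.7% of all genes passed in distal minus sham and 4 of 6 members passed, and in the late window the values were 61.8% and 5 of 6. Cntf was higher by 0.62 early and 0.65 late (SE 0.09 each). By their brightest probe sets, Cntfr was lower, by -0.71 early and -0.78 late (SE 0.14 each), and Lifr by -0.55 and -0.26 (SE 0.08 each). Their second probe sets followed this only in part. For Lifr, 1395957_at gave -0.02 early (SE 0.12, adjusted p 0.894) and 0.38 late (SE 0.12, adjusted p 0.00495), the opposite direction. For Cntfr, 1394008_x_at gave 0.18 early (SE 0.13, adjusted p 0.219) and -0.40 late (SE 0.13, adjusted p 0.0083). Il6r was higher by 0.33 and 0.30 (SE 0.12 each). Il6 differed by -0.22 early (SE 0.21, adjusted p 0.371) and by 4.15 late (SE 0.22, adjusted p 5.73e-22). The early Il6 difference, between groups that both lay below the filter level, passed with arrays centred on the median (-0.51, adjusted p 0.0231), with array weights (-0.24, adjusted p 0.0301), with the technical set as a fixed block (-1.03, adjusted p 0.0184) and with only the compared arrays fitted (-0.22, adjusted p 0.0196). The estimation of the array weights did not converge. The single late distal array outside set A, labelled do at 18 h, read 11.12 for Cntf, 8.95 for Cntfr and 7.09 for Lifr. The 5 set A arrays of that hour read 11.70 to 12.17, 7.52 to 8.01 and 6.60 to 6.72. With the technical set as a random block, none of the early differences of the 6 members passed and Il6 alone passed late (4 and 5 without the block). For these offsets lesion and set cannot be told apart.

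Of 10 further genes of the gp130 family, 6 were on the array. The ligands Il11 and Osm and the receptor chain Il27ra lay below the filter (means 5.24, 5.09 and 4.62). Ctf1 (cardiotrophin-1), Ebi3 (a subunit of interleukin-27) and Il11ra1 (the interleukin-11 receptor) were tested. None of the 3 passed in the late proximal comparison, and 0 had an unadjusted p under 0.05. The differences were -0.10 (SE 0.21) for Ctf1, 0.06 (SE 0.14) for Ebi3 and -0.14 (SE 0.08) for Il11ra1. Il11ra1 was the 1 of 3 that passed in distal arrays over time, where 24.6% of all genes passed. It rose there by 0.29 (SE 0.08, adjusted p 0.00504). Its distal change exceeded its proximal change by 0.36 (SE 0.12, adjusted p 0.0287), where 16.5% of all genes passed. Its change in sham was 0.22 (SE 0.09, adjusted p 0.0662). With the distal change set against the sham change, 0 of the 3 genes passed, where 17.8% of all genes did.

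Downstream of the receptors, 19 of 20 listed signalling genes were tested. In the late proximal comparison 6 were higher and 1 lower, where 9.71% of all genes passed, and the median difference was 0.02 against -0.02 for all genes. The 4 with the smallest p were Socs3, the feedback inhibitor of gp130 (1.09, SE 0.11, adjusted p 5.56e-11), Ptpn2, a phosphatase of Jak and Stat proteins (0.98, SE 0.12, adjusted p 4.69e-09), Cish, a further inhibitor of the Socs family (0.72, SE 0.11, adjusted p 1.07e-06), and the kinase Jak2 (0.86, SE 0.15, adjusted p 4.55e-05). In distal arrays over time 5 of 19 rose and 2 fell, where 24.6% of all genes passed. Socs3 rose there by 0.76 (SE 0.12), Ptpn2 by 1.13 (SE 0.12) and Cish by 0.32 (SE 0.11), and Jak2 differed by 0.16 (SE 0.16, adjusted p 0.517). Of the 7 genes called in each comparison 5 were shared, all in the same direction (71.4% of each list). Over all genes, 736 were called in both, or 61.7% of the proximal and 24.3% of the distal calls, 724 of them in the same direction. The comparisons have no array in common. The distal change was lower than the proximal change for 4 of 19 genes and higher for 0, where 16.5% of all genes passed (1262 lower and 765 higher), so the share of the list was near that of all genes.

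Genes that gp130 cytokines are known to induce in neurons, glia or liver formed the list with the most calls. Like the signalling list, it was chosen with earlier results of these data known. Its counts are a description and not support for gp130 signalling. Of 26 listed and measured genes 19 were tested. In the late proximal comparison 16 were higher and 0 lower, where 9.71% of all genes passed, with a median difference of 1.09 against -0.02 for all genes. Socs3 stands in this list too. The 4 with the smallest p were the neuropeptides Vip (2.63, SE 0.12, adjusted p 6.18e-24) and Gal (1.14, SE 0.09, adjusted p 3.42e-15), the glial filament gene Gfap (2.13, SE 0.14, adjusted p 1.34e-18) and the secreted lectin Reg3b (3.19, SE 0.21, adjusted p 2.87e-18). Vip lay below the filter level in late sham arrays (mean 5.39), so its fold is a bound, at least 5.88-fold. In distal arrays over time 15 rose and 0 fell, where 24.6% of all genes passed (median 0.76, all genes 0.03). All 15 were among the 16 called in proximal minus sham, or 93.8% of those (61.7% over all genes), and the remaining gene was Mcl1, a survival factor (0.78 in proximal minus sham, -0.06 in distal over time). In sham over time 2 of 19 rose, Reg3a and Reg3b, where 14.8% of all genes passed (1439 higher), a share near that of the list. Many of these genes also respond to other injury signals, and whether Il6 or its relatives drove them was not tested.

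Hour by hour in proximal minus sham, 0 of 19 genes of this list passed at 1 h and at 3 h (0% of all genes at both), 1 (Ccl2) at 8 h (1.75%), 8 at 18 h (1.51%), 11 at 24 h (1.21%) and 16 at 28 h (4.47%). In the middle window 1 of 19 (Junb) passed, where 0.114% of all genes did. In distal arrays against 1 and 3 h, 1 of 19 (Icam1) passed at 8 h (1.83% of all genes) and 7 at 12 and 16 h together (2.3%), among them Socs3, Gfap and Reg3b. Atf3 was high before Il6 in the 2 proximal arrays at 12 h, where it read 10.58 to 11.46 while Il6 read 4.48 and 4.82. The sham 12 h array labelled b read 11.55 for Atf3, and the other 20 sham arrays read 6.14 to 10.16.

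**Figure D5:**
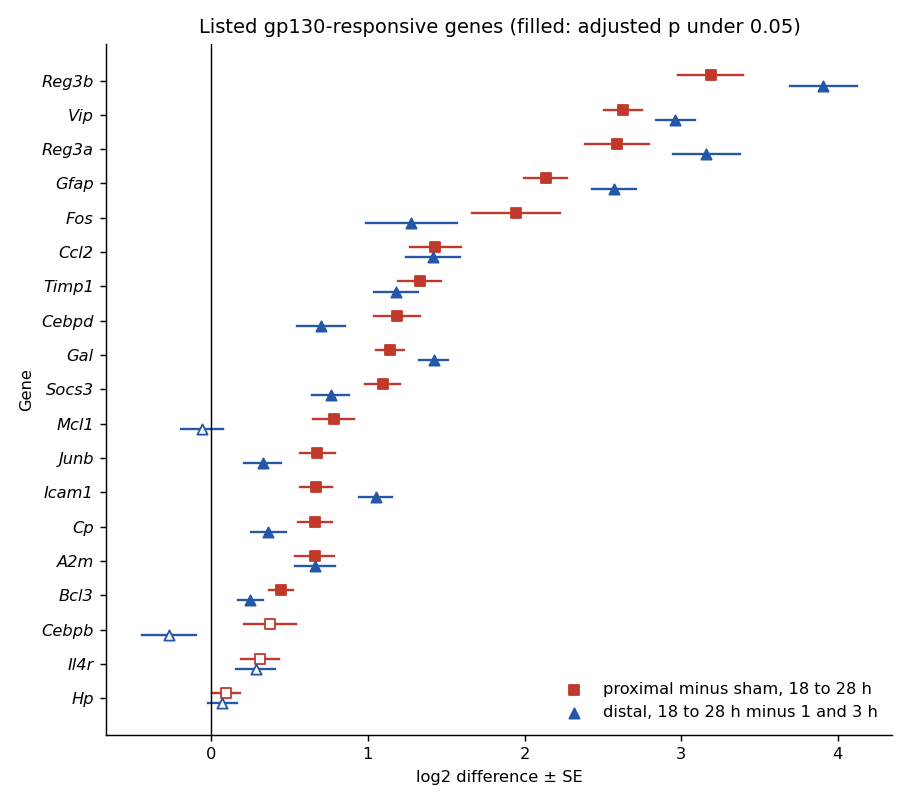
Log2 difference with its SE (horizontal axis) for the 19 tested genes of the gp130-responsive list, in late proximal minus late sham arrays (squares) and in late distal minus 1 and 3 h distal arrays (triangles), filled where the adjusted p was under 0.05. Reg3b (3.19 and 3.91), Vip (2.63 and 2.96), Reg3a (2.59 and 3.16) and Gfap (2.13 and 2.57) lie farthest to the right, and Mcl1 is filled in the first comparison only (0.78 and -0.06).

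The genes with the pattern most like Il6 were ranked by Pearson correlation over the 16 sham and proximal group means, as a description without a test. They were LOC100910424 (r = 0.98), C9h6orf141 (0.97), LOC100912188 (0.95), Smagp (0.95) and Pvr (0.95). The points share arrays and technical sets among genes. In late proximal minus sham these genes differed by 1.36, 2.04, 1.94, 2.21 and 2.12.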

How the data were processed

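The measured data were the deposited log2 intensities of 72 Affymetrix rat arrays, 1 value for each of 31099 probe sets. The authors' log2 values came from RMA, per the submitters' processing notes. The sources used here do not say whether all arrays were normalised together. They ran from 3.27 to 14.64, with array medians of 6.88 to 7.08. Per the labels' protocols, the ganglion RNA was purified on Qiagen columns and carried a biotin label. The number of arrays limits the precision.

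From these values, 57 control probe sets were left out. In GEO's platform annotation, 20826 probe sets had 1 symbol, 436 several and 9780 none. The brightest probe set stood for each gene, and 12276 genes with a mean of at least 5.46 were tested. limma 3.58.1 in R 4.3.3 fitted 1 mean for each of 24 groups (48 residual degrees of freedom, eBayes with trend), and hours of a window had equal weight. Calls are two-sided, at an adjusted p under 0.05. Deposited values were used without further normalisation. The fit was tested on simulated data. Technical sets came from clustering (Ward) the probe sets below the filter.

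The members and lists were chosen with earlier results of these data known. All members and further family genes are named. From the signalling and responsive lists, the 4 genes with the smallest p in the late proximal comparison are described, and others that single out a small count were chosen after their values were seen. The 5 nearest patterns are given for the member called there. Gene positions and the promoter window come from RefSeq (GRCr8), where 6 of 9 listed genes had a window. An alternative changed the verdict on a value that had not passed only if it then passed. Alternatives covered the filter, further normalisation, array weights, probe set choice, blocks, pooling of sham, windows and single arrays. Of the settings tried, 2 were added after the data were seen, the fits without the sham array labelled b at 12 h and without the 2 distal arrays outside set A.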

Additional observations from a re-analysis of the deposited data

Results flagged for a closer look

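Among 24 pairs of a member and a group of 4 to 10 arrays, 5 had 1 array far from the others by Dixon's criterion, which chance alone flags in about 1 of 20 groups. In the distal 18 h group, the array labelled do read 6.18 for Lif (4.58 to 4.86 in the other 5 arrays), 7.09 for Lifr (6.60 to 6.72) and 8.95 for Cntfr (7.52 to 8.01). This array was also the lowest of its group for Il6 (6.09 against 7.32 to 8.73) and lay in technical set C. In the distal 8 h group, the array labelled c read 11.91 for Cntf (11.70 to 11.74 in the others). In the distal 1 h group, the array labelled a read 7.49 for Il6r (7.84 to 7.89 in the others).

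The change of Il6 over time differed between lesions and sham by a direct test. The proximal change exceeded the sham change by 3.52 and the distal change exceeded it by 4.32. The sham arrays and the lesion arrays at 1 and 3 h lay below the filter level, so these sizes rest in part on dim values.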

How the results depend on the processing

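The late rise of Il6 over sham passed in every alternative that kept the gene (3.25 to 3.80), as did its rise over time in distal (4.15 to 4.83) and proximal arrays (3.26 to 3.83). A filter at the 50th percentile (7.01) removes Il6, so the members called went to 0 in late proximal minus sham (1 as reported), 1 in distal over time (2 as reported) and 1 in proximal over time (2 as reported). In late proximal minus sham, the count was 2 with further quantile normalization, without arrays whose letter is followed by o, with all sham arrays pooled, without the sham array labelled b at 12 h and without the 2 distal arrays outside set A, Cntf being added. It was 3 with arrays centred on the median, with array weights and with the technical set as a fixed or a random block, Il6r being added too. The array letter paired the samples at 2 of 6 hours only (12 of 20 correlations of deviations over 0.1). With the letter as a replicate block, 2 members passed (Cntf 0.27, adjusted p 0.0469), and 1324 genes against 1192. In the early window array weights gave 1 (Lifr, 0 as reported). Over time, the counts were 1 without 3 h in distal arrays, 1 without 18 h or 1 h in proximal arrays, and in sham (1 as reported) 2 with centring, 4 with array weights and 0 without 24 h or 3 h. For distal against proximal change (0 as reported), 1 member passed with quantile normalization (Il6st), and Il6 alone with centring, without the letter o arrays, with either set block, without 18 h and without the 2 distal arrays. Array weights, whose estimation did not converge, gave 3. Leaving out single arrays gave 0 for the early and middle windows, 1 to 2 for late proximal minus sham, 2 for distal and proximal over time, 0 to 2 for sham and 0 to 1 for distal against proximal change. The middle window could not be fitted without its 1 sham array at 16 h. Early distal minus sham changed sign for Il6st (-0.26 with quantile normalization, -0.27 with centring), for Il6r (-0.043 and -0.054 with the fixed and random set block) and for Cntfr (0.058 with the random block). Apart from the removal of Il6 by the filter, the cause was not tested. Over all genes, late proximal minus sham gave 504 (without 28 h) to 3429 calls (array weights), 2336 with the set as a fixed block.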
